A study of Homo sapiens with 6 samples.

Results

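The 32 genes described here are HOX genes of the 4 human clusters that lie outside paralog groups 10 and 11. They were taken by symbol from the Ensembl IDs of a table of 60107 genes, with 8 genes of the HOXA cluster, 10 of HOXB, 7 of HOXC and 7 of HOXD. RNA was measured in 6 libraries of H9, a human embryonic stem cell line, collected at the end of day 9 of a directed differentiation to nephron progenitor cells that runs over 10 days. In 3 libraries the cells had grown in complete media, called "with glutamine" here, and in 3 under glutamine deprivation from day 0 on, called "without glutamine". Both groups share the line, the protocol and the day of collection. The labels do not state that replicates are separate cultures, so p-values measure the spread between these libraries.

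HOX genes encode homeodomain transcription factors that give cells along the body axis their position. In each cluster the genes lie in the order of their paralog numbers, and low-numbered genes are switched on earlier and reach further toward the head than high-numbered ones. HOX proteins bind DNA together with TALE homeodomain partners of the PBX, MEIS and PKNOX families. In the kidney, the group 11 genes act in the metanephric mesenchyme, and the lower-numbered genes mark more anterior trunk levels.

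The libraries held 78220507 to 84746566 counts, of which the 32 HOX genes took 0.165% to 0.234%. Replicate 1 with glutamine stood apart from its group across all genes: over log2 CPM it correlated less with both of its fellow replicates (Pearson's r 0.976) than with the other group (0.991 to 0.993). The same held for the HOX genes. Of the 27 that passed the filter on low counts, this library lay nearer the mean of the libraries without glutamine than that of the other libraries of its own group for 25 (92.6%), against 62.1% of all 22613 genes tested. Fold changes are therefore given with this library and without it. Markers of intermediate mesoderm and nephron were detected in every library, 11 of 11, the lowest value being 2.56 CPM for GATA3 in replicate 3 with glutamine.

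The cells held RNA of nearly all HOX genes from group 1 through group 9 and almost none of groups 12 and 13. All 14 members of groups 1 to 5 and all 12 of groups 6 to 9 had at least 129 counts in every library. Summed as CPM per kilobase of exon (CPM, the count scaled to library size, divided by the length of the gene's merged exons), groups 1 to 5 stood at 295 ± 39.2 with glutamine and 268 ± 25.7 without (SD, n = 3). Groups 6 to 9 stood at 528 ± 76.7 with glutamine and 429 ± 39.5 without, and groups 12 and 13 at 0.0442 ± 0.0454 and 0.123 ± 0.0201. For groups 1 to 5 and 6 to 9 the ranges of the libraries with and without glutamine overlapped.

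HOXB9, a gene of the thoracic body axis, had the highest level per kilobase in both groups of libraries, at 181 ± 46.6 with glutamine and 114 ± 8.21 without (CPM per kilobase, SD, n = 3). HOXA5, which patterns the neck, upper trunk and airway, came next at 94.5 ± 15.4 and 78.9 ± 8.79, and HOXA9, known from limb and blood progenitors, followed at 74.4 ± 13.9 and 54.1 ± 6.49. HOXB9 lay above HOXA5 in every library, while the ranges of HOXA5 and HOXA9 overlapped with glutamine and were separate without it. HOXD9, a gene of the lumbar axis and limb, took rank 11 with glutamine at 27.7 ± 4.61 and rank 4 without at 42.5 ± 2.65. HOXC8, which acts in the lower neck and thorax, went the other way, from rank 5 at 42.8 ± 12.7 to rank 11 at 25.5 ± 0.190. The lowest of groups 1 to 9 was HOXD1, at 1.2 ± 0.302 and 1.43 ± 0.594. Levels per kilobase depend on the exon models, which for genes with several starts, such as HOXA3, HOXB3 and HOXC4, hold exons that may not all be used.

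**Figure D1:**
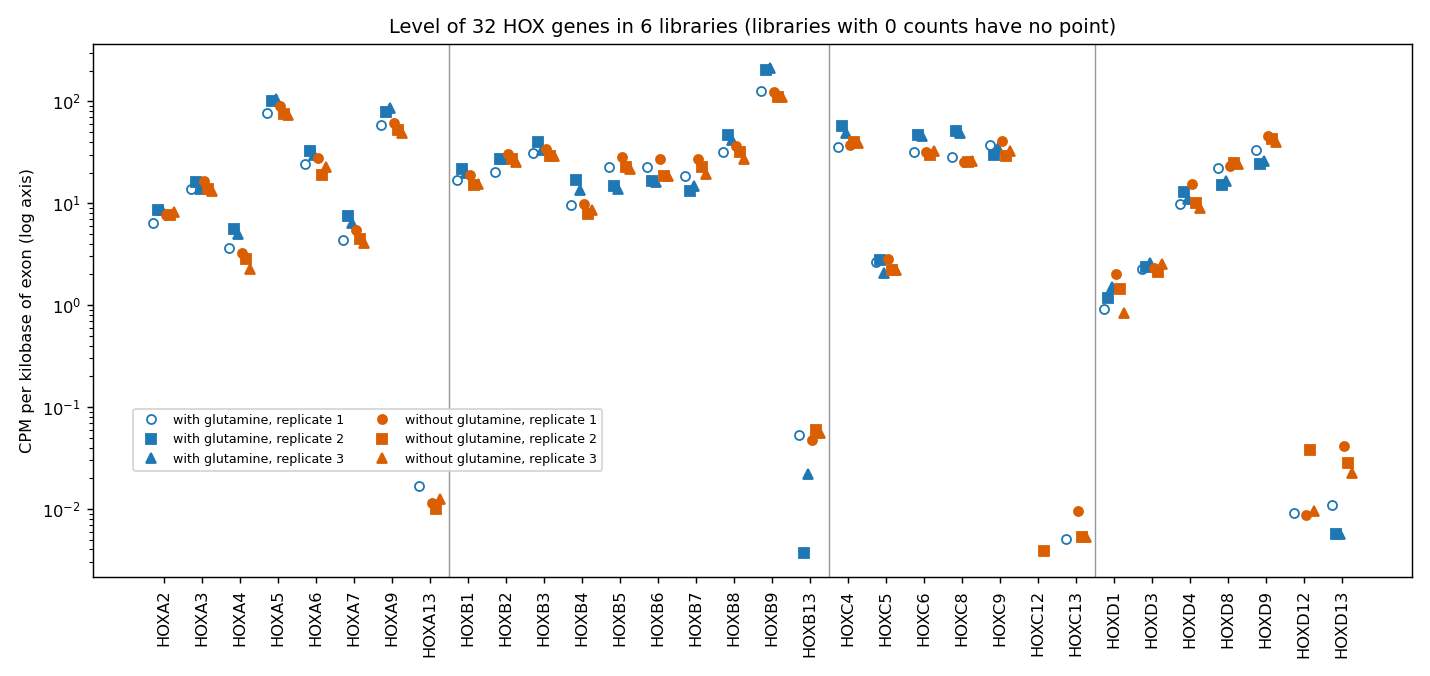
The vertical log axis gives CPM per kilobase of exon for the 32 HOX genes, ordered by cluster and paralog number, with 1 point per library (blue, with glutamine, replicate 1 open; orange, without). Genes of groups 1 to 9 lie well above genes of groups 12 and 13, and HOXB9 is highest in every library.

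The comparison without against with glutamine asks which genes respond to the lack of glutamine. With all 6 libraries, none of the 27 HOX genes tested had an adjusted p under 0.05 in edgeR's quasi-likelihood test, against 0.00442% of all genes, which is 1 gene of 22613. At an unadjusted p under 0.05 the test gave 10 HOX genes, 4 higher and 6 lower without glutamine, or 37.0% against 29.7% of all genes (14.7% higher and 15% lower). At an adjusted p under 0.1 in edgeR there were 5 (18.5% against 14.5%), HOXB7 and HOXD9 higher (7.3% of all genes) and HOXA4, HOXB9 and HOXC8 lower (7.23%). DESeq2 called 7 of the 26 to which it gave an adjusted p: HOXB7, HOXD8 and HOXD9 rose, and HOXA4, HOXB4, HOXB9 and HOXC8 fell. That is 26.9%, against 14% of all genes under DESeq2 (7.54% higher and 6.44% lower). For 6 HOX genes no library of one group reached into the range of the other (22.2% against 34.2% of all genes, 17.3% higher and 16.9% lower): HOXB7, HOXD8 and HOXD9 were higher in all 3 libraries without glutamine, and HOXA4, HOXB9 and HOXC8 lower.

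Without replicate 1 with glutamine, edgeR called 17 of the 27 (63.0% against 41.3% of all genes). HOXB5, HOXB7, HOXB13, HOXD8 and HOXD9 rose, which is 18.5% against 22.3% of all genes, and 12 fell, which is 44.4% against 19%. Groups did not overlap for 19 of the 27 HOX genes in these 5 libraries, where 63.3% of all genes did not overlap either. Those that fell were HOXA4, HOXA5, HOXA6, HOXA7, HOXA9, HOXB1, HOXB4, HOXB8, HOXB9, HOXC4, HOXC6 and HOXC8. The median log2 fold change over the 27 was -0.06 in the full data and -0.13 when it was left out, beside 0.001 and 0.008 over all genes tested. Excluding HOXB13, which rests on few counts, the log2 fold changes with all libraries ran from -0.77 for HOXA4 to 0.61 for HOXD9.

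**Figure D2:**
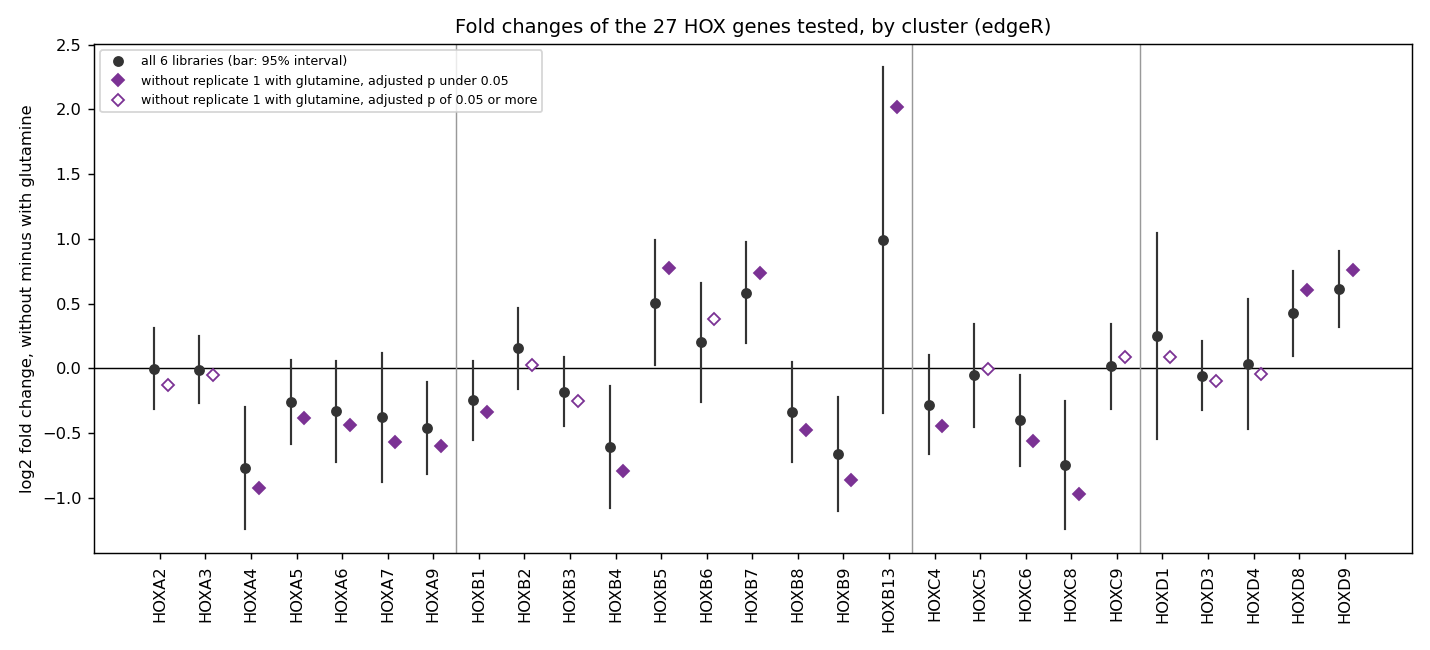
The vertical axis gives the log2 fold change, without minus with glutamine, of the 27 HOX genes tested, by cluster. Black points with 95% intervals are from all 6 libraries and purple diamonds from the 5 libraries without replicate 1 with glutamine, filled where the adjusted p is under 0.05. HOXA genes lie below 0 (HOXA2 and HOXA3 near 0, with a sign that other settings turn), HOXB genes on both sides, and HOXD8 and HOXD9 above 0.

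In the HOXA cluster, on chromosome 7, all 7 genes tested had a fold change below 0, though those of HOXA2 and HOXA3 were near 0 and changed sign under other settings. HOXA4 (ENSG00000197576), a gene of the neck region, was at 6.38, 9.74 and 8.79 CPM with glutamine (replicates 1 to 3, as in all such series) and at 5.68, 4.91 and 3.99 without. Every library without glutamine was lower than every library with it, and replicate 1 with glutamine was the lowest of its group. The log2 fold change was -0.77 (edgeR adjusted p 0.0799, SE 0.20), and -0.92 without replicate 1 with glutamine (edgeR adjusted p 0.000683). HOXA4 lies at 27128507 to 27130799 on the minus strand (GENCODE 29 on GRCh38). It shares 541 exon bases with a same-strand gene, and reads there cannot be told apart from that gene's. It also shares 285 with antisense genes, where the same holds only if counting ignored the strand, which is not given.

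HOXA9 was at 179, 236 and 261 CPM with glutamine and at 186, 157 and 148 without. In the group with glutamine, replicate 1 lay among the libraries without glutamine, and the other libraries of its group were above all of those. Its log2 fold change was -0.46 (edgeR adjusted p 0.109, SE 0.15), and -0.60 without that library (edgeR adjusted p 0.000994). HOXA5 showed the same arrangement, at 131, 174 and 179 CPM with glutamine and 152, 128 and 124 without, a log2 fold change of -0.26. For HOXA6 and HOXA7, genes of the thoracic axis, the log2 fold changes were -0.33 and -0.38 with groups that overlapped. HOXA6 and HOXA9 share 57 and 481 exon bases with same-strand genes, and their counts are uncertain to that extent. HOXA6, HOXA7 and HOXA9 share 505, 1507 and 422 with antisense genes, which matters only if counting ignored the strand.

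HOXA2, which patterns the hindbrain and second pharyngeal arch, was at 15.5, 21.1 and 21.1 CPM with glutamine and at 18.8, 18.7 and 20.1 without. Its log2 fold change was -0.002 with a 95% interval of -0.31 to 0.31. HOXA3, a gene of the pharyngeal organs, was at 58.9, 69.5 and 59.7 CPM with glutamine and 70.6, 59.4 and 57.0 without, with an interval of -0.27 to 0.25. In both genes the libraries of the groups lay among each other, and the sign of the fold change differed between settings.

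In the HOXB cluster, on chromosome 17, 5 of the 10 genes tested had a fold change above 0 and 5 below, and edgeR called none with all libraries. HOXB7 (ENSG00000260027), a gene of the thoracic axis at 48607227 to 48633572 on the minus strand, was at 28.2, 20.0 and 22.5 CPM with glutamine and at 41.3, 34.9 and 29.7 without. All libraries without glutamine were higher than all with it. Its log2 fold change was 0.58 (edgeR adjusted p 0.0857, SE 0.16), and 0.74 without replicate 1 with glutamine (edgeR adjusted p 0.00161).

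HOXB5, which acts in the neural crest and gut nerves, was at 46.6, 30.3 and 28.1 CPM with glutamine and 58.2, 46.6 and 44.5 without. Replicate 1 with glutamine reached the level of the libraries without glutamine, and the other libraries of its group stayed below them. HOXB5 had a log2 fold change of 0.51 (edgeR adjusted p 0.156, SE 0.21), and 0.77 without that library (edgeR adjusted p 0.000619). HOXB6 was at 59.5, 43.1 and 42.3 CPM with glutamine and 70.5, 48.2 and 48.2 without, a log2 fold change of 0.20 that edgeR called in neither fit (adjusted p 0.501 and 0.0689). It drew near 0 (0.00015) without replicate 1 of the group without glutamine, which held its highest value.

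HOXB9 (ENSG00000170689), at 48621159 to 48626356 on the minus strand, was at 328, 527 and 545 CPM with glutamine and at 319, 283 and 282 without. In the group with glutamine, replicate 1 lay just above the highest library without glutamine. The log2 fold change was -0.66 (edgeR adjusted p 0.0857, SE 0.19), and -0.86 without that library (edgeR adjusted p 1.86e-05). HOXB4, known from blood stem cells, was at 36.1, 63.6 and 50.1 CPM with glutamine and at 36.9, 29.7 and 31.9 without. Replicate 1 with glutamine overlapped the other group, and the log2 fold change was -0.60 (edgeR adjusted p 0.11, SE 0.20), or -0.79 without it (edgeR adjusted p 0.00058). HOXB8, a gene of the spinal cord and of myeloid progenitors, was at 65.1, 96.5 and 85.4 CPM with glutamine and 74.4, 65.0 and 56.1 without, a log2 fold change of -0.34 with groups that overlapped.

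HOXB1, which sets the identity of a hindbrain segment, was at 42.0, 53.7 and 49.1 CPM with glutamine and 46.9, 37.2 and 37.8 without, a log2 fold change of -0.25. HOXB2, active in the same part of the hindbrain, was at 47.3, 63.5 and 63.7 CPM with glutamine and 70.8, 64.0 and 59.6 without, a log2 fold change of 0.16 with a 95% interval of -0.16 to 0.47. HOXB3 was at 231, 294 and 250 CPM with glutamine and 254, 216 and 215 without, a log2 fold change of -0.18. In these 3 genes the groups overlapped, and HOXB1 alone of them was called when replicate 1 with glutamine was left out (edgeR adjusted p 0.0304).

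In the HOXC cluster, on chromosome 12, 4 of 5 genes tested had a fold change below 0, of which HOXC5 changed sign when some libraries were left out. HOXC8 (ENSG00000037965), at 54009106 to 54012362 on the plus strand, was at 53.2, 97.0 and 92.2 CPM with glutamine and at 48.0, 47.9 and 48.6 without. The libraries without glutamine lay close together and below all of those with it, with replicate 1 with glutamine close above them. For HOXC8 the fold change on the log2 scale was -0.75 (edgeR adjusted p 0.0857, SE 0.21), and -0.97 without that library (edgeR adjusted p 3.89e-06).

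HOXC6, a gene of the lower neck, thorax and forelimb motor neurons, was at 111, 165 and 160 CPM with glutamine and 113, 105 and 114 without, a log2 fold change of -0.40 (edgeR adjusted p 0.135, SE 0.15). HOXC4, a gene of the neck region, was at 96.9, 156 and 132 CPM with glutamine and 101, 109 and 107 without, a log2 fold change of -0.28. Replicate 1 with glutamine lay within the range of the libraries without glutamine for HOXC6 and just below it for HOXC4. HOXC5, at 3.77 to 5.09 CPM over all libraries, had a log2 fold change of -0.05 whose sign turned when some libraries were left out. HOXC4, HOXC5 and HOXC6 share exons with each other or with another listed gene, which makes their counts uncertain.

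HOXC9, which fixes thoracic motor neuron identity, lies next to HOXC8 and did not show its difference. It was at 61.8, 49.8 and 58.2 CPM with glutamine and at 68.3, 49.1 and 54.4 without. Each group held both high and low libraries, and the log2 fold change was 0.02 with a 95% interval of -0.31 to 0.35. Under upper quartile scaling its sign turned.

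The HOXD cluster, on chromosome 2, held 2 genes, HOXD8 and HOXD9, that were higher in every library without glutamine than in any with it. HOXD9 (ENSG00000128709), at 176122720 to 176124937 on the plus strand, was at 61.6, 45.1 and 48.9 CPM with glutamine and at 84.6, 78.8 and 74.7 without. The groups were separate, with replicate 1 with glutamine lying between. The log2 fold change was 0.61 (SE 0.12), with an edgeR adjusted p of 0.0689, the smallest p among the HOX genes tested, and 0.76 without that library (edgeR adjusted p 7.08e-05).

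HOXD8 (ENSG00000175879), at 176129694 to 176132695 on the plus strand, was at 58.0, 39.8 and 43.2 CPM with glutamine and at 61.3, 64.5 and 63.6 without. In the group with glutamine, replicate 1 lay close below the libraries without glutamine, which lay close together. HOXD8 had a log2 fold change of 0.43 (edgeR adjusted p 0.109, SE 0.14), and 0.61 without that library (edgeR adjusted p 0.000153). HOXD8, HOXD9, HOXC8, HOXB7, HOXB8, HOXB9 and HOXA5 share no exon base with another listed gene on either strand. Of the 32 genes, 14 share exon bases with a same-strand gene and 15 with an opposite-strand gene. Among them are HOXB4, with 641 bases on the same strand, and HOXD1, with 1147 on the opposite strand.

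The low-numbered HOXD genes showed no difference beyond their spread. HOXD4, a gene of the hindbrain and neck, was at 14.3, 18.8 and 15.9 CPM with glutamine and 22.5, 14.7 and 13.1 without. HOXD3, a gene of the first neck vertebra, was at 8.04, 8.44 and 9.21 CPM with glutamine and 8.18, 7.57 and 8.95 without, with a 95% interval of the log2 fold change of -0.32 to 0.21. HOXD1, active in pain-sensing neurons, was at 1.80, 2.34 and 2.99 CPM with glutamine and 3.99, 2.82 and 1.64 without, an interval of -0.54 to 1.04. In all 3 genes the groups overlapped. HOXD3 and HOXD4 share 2206 and 1178 exon bases with a same-strand gene, and the signs of the fold changes of HOXD1, HOXD3 and HOXD4 turned when some libraries were left out, that of HOXD4 also under upper quartile scaling.

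Genes of groups 12 and 13, which act in the digits, hindgut, genital tract and hair, were at the limit of detection. HOXB13, a gene of the prostate and tail end, was the 1 of 6 that passed the filter on low counts, with 15, 1 and 6 counts with glutamine and 14, 16 and 15 without. Its log2 fold change of 0.99 had a 95% interval of -0.34 to 2.33 (edgeR adjusted p 0.272), and it was called without replicate 1 with glutamine, where the group with glutamine held 7 counts in all. HOXD13 had 2, 1 and 1 counts with glutamine and 8, 5 and 4 without, and HOXA13 had 7, 0 and 0 against 5, 4 and 5. HOXD12 had 1, 0 and 0 counts against 1, 4 and 1, HOXC13 had 1, 0 and 0 against 2, 1 and 1, and HOXC12 had 1 count in all 6 libraries together. A count of 0 allows up to 3 counts, or 0.0349 to 0.0384 CPM in these libraries, for counting error only.

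The upstream sequences of 3 genes are shown because they stand for both directions: HOXD8 was higher on average, and HOXA4 and HOXA9 lower, without glutamine. Each runs 5′ to 3′ over the 250 bases before the gene's start in RefSeq (GRCh38.p14), at chr2:176129455-176129704 on the plus strand for HOXD8 and, on the minus strand, at chr7:27130758-27131007 for HOXA4 and chr7:27165538-27165787 for HOXA9. Capitals mark the letters TTTATG, a core that caudal (CDX) homeodomain proteins bind, or its reverse complement CATAAA.
HOXD8: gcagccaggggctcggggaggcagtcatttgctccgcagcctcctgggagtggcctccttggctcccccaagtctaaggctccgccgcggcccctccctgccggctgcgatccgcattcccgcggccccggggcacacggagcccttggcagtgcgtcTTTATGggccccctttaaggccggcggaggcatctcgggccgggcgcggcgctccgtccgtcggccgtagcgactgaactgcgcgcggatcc
HOXA9: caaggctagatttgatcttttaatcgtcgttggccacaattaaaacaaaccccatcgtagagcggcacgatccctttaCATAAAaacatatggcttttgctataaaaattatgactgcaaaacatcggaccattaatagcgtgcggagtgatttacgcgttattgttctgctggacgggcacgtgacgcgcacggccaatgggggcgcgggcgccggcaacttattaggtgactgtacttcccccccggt
HOXA4: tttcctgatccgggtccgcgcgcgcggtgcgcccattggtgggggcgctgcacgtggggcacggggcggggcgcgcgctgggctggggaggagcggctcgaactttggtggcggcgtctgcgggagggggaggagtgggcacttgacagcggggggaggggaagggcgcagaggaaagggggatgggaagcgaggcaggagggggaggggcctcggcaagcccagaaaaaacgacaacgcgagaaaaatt
HOXD8 and HOXA9, with fold changes of opposite sign, each hold the letters, and HOXA4 holds none. Of the 32 HOX genes, 16 had an entry in the RefSeq table, with 21 different windows, since HOXA3 has several starts and HOXC4 and HOXC5 share 1. The letters TTTATG, on either strand, were in 3 of the 21 windows (14.3%), against 9.7% of 34941 windows of the same length before all listed starts. Those of HOX and PBX together, TGATNNAT, were in 2 windows, those of HOXA2 and HOXB1 (9.5% against 6.5%), and the nuclear receptor half-site AGGTCA was in 0 (12.1% of all windows). The windows had a median GC content of 57.2%, against 58.0% for all, and a median ratio of observed to expected CpG of 0.86 against 0.56.

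The clusters took different shares of the summed level per kilobase. HOXB held 43.5%, 44.8% and 44.3% (replicates 1 to 3 with glutamine) and 43.4%, 42.8% and 41.9% without. These groups were separate by a narrow margin, lower without glutamine. HOXA held 27.2% to 28.9% with glutamine and 26.1% to 27.3% without, and HOXC 19.5% to 21.0% and 17.9% to 20.1%. The HOXD share was 9.83%, 6.22% and 6.52% with glutamine and 11.4%, 12.1% and 11.7% without. All 3 libraries without glutamine had a larger HOXD share than all 3 with it, and replicate 1 with glutamine had the largest of its group. The shares are within a library, so no scaling between libraries enters them. As summed CPM per kilobase, HOXD stood at 68.0, 55.7 and 57.6 with glutamine and 88.3, 80.3 and 76.5 without.

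**Figure D3:**
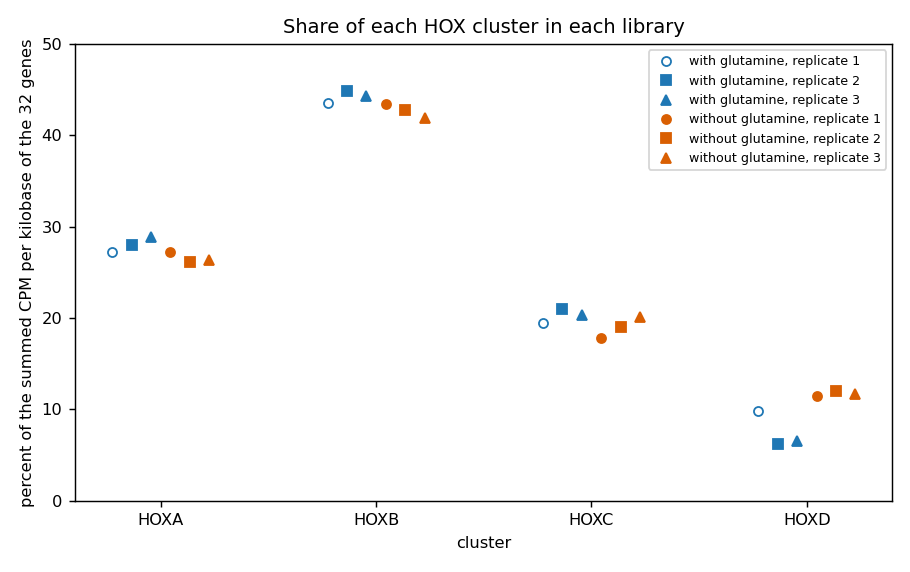
The vertical axis gives the percent of the summed CPM per kilobase of the 32 HOX genes that each cluster held, with 1 point per library (blue, with glutamine, replicate 1 open; orange, without). The HOXD points without glutamine, from 11.4% to 12.1%, lie above those with it, from 6.22% to 9.83%, and the points of HOXA and HOXC overlap between groups.

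Paralog number did not order the fold changes among these genes. Over the 27 genes, not independent of one another, paralog number and log2 fold change had a rho (Spearman) of -0.01 and an r (Pearson) of 0.20, or -0.13 and -0.06 over 26 without HOXB13. Medians were -0.05 over the 14 genes of groups 1 to 5 and -0.33 over the 12 of groups 6 to 9. Without replicate 1 with glutamine, edgeR called 6 of those 14 (1 rose, 5 fell) and 10 of those 12 (3 rose, 7 fell), against 41.3% of all genes in either direction. Paralogs of the same number went different ways by cluster. In group 9 the log2 fold changes were -0.46, -0.66, 0.02 and 0.61 for HOXA9, HOXB9, HOXC9 and HOXD9, and in group 8 they were -0.34, -0.75 and 0.43 for HOXB8, HOXC8 and HOXD8. In group 4 they were -0.77, -0.60, -0.28 and 0.04 for HOXA4, HOXB4, HOXC4 and HOXD4. In group 7, HOXA7 was at -0.38 and HOXB7 at 0.58.

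Ratios of 2 HOX genes within a library show the same contrasts without any scaling between libraries. The pairs were chosen after the fold changes were seen, so the direction of their differences is set by that choice and is a description. HOXD9 over HOXB9 was at a log2 ratio of counts of -2.41, -3.55 and -3.48 with glutamine and -1.91, -1.85 and -1.91 without, a difference of 1.25 in the mean. Replicate 1 with glutamine lay between them and the rest of its group. HOXD8 over HOXC8 was at 0.12, -1.29 and -1.09 with glutamine and 0.35, 0.43 and 0.39 without. HOXC8 thus had more counts than HOXD8 in replicates 2 and 3 with glutamine and fewer in the other 4 libraries.

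Inside the HOXB cluster, HOXB5 over its neighbour HOXB4 was at 0.37, -1.07 and -0.84 with glutamine and 0.66, 0.65 and 0.48 without. HOXB7 over its neighbour HOXB8 was at -1.21, -2.27 and -1.93 with glutamine and -0.85, -0.90 and -0.92 without. In both pairs of neighbours the groups were separate. HOXB2 over HOXA2, a pair of anterior paralogs, was at 1.60, 1.59 and 1.60 with glutamine and 1.91, 1.77 and 1.57 without, with groups that overlapped and a replicate 1 with glutamine that did not stand apart.

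**Figure D4:**
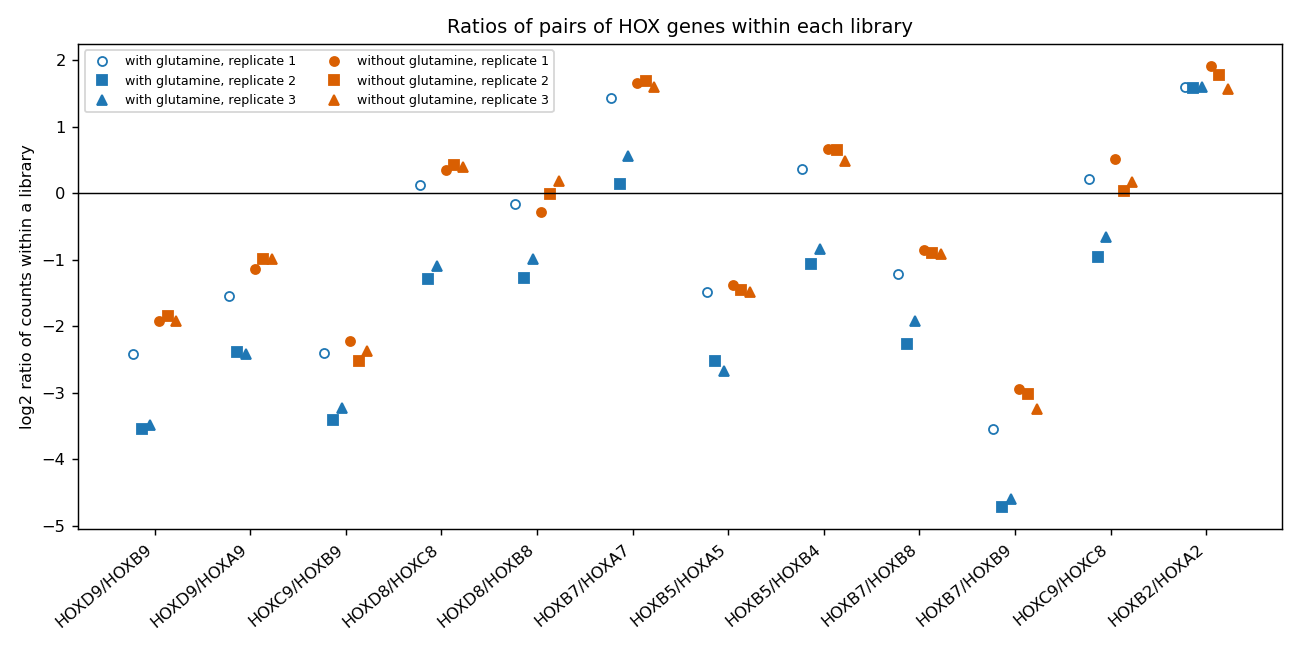
The vertical axis gives the log2 ratio of the counts of 2 HOX genes in the same library for 12 pairs, with 1 point per library (blue, with glutamine, replicate 1 open; orange, without). For HOXD9 over HOXB9 the points without glutamine lie from -1.91 to -1.85 and those with it from -3.55 to -2.41, and the points of HOXB2 over HOXA2 overlap.

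HOX genes of groups 10 and 11 had larger fold changes than any of the 27 genes. HOXA10 was at 47.2, 8.91 and 13.1 CPM with glutamine and at 68.1, 61.9 and 60.6 without, a log2 fold change of 1.46 (edgeR adjusted p 0.144), beside -0.46 for HOXA9. HOXD10 was at 6.32, 0.487 and 0.649 CPM with glutamine and at 17.0, 27.7 and 32.7 without, a log2 fold change of 3.36 (edgeR adjusted p 0.0762), beside 0.61 for HOXD9. The 6 genes of these groups had log2 fold changes from 1.46 for HOXA10 to 4.94 for HOXC11 and groups that did not overlap, and the difference between them and the 27 genes was not tested.

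Of the TALE partners, 9 of 9 were tested and none was called by edgeR with all libraries in either direction. DESeq2 called PBX3 alone (11.1%, against 14% of all genes). PBX3 was at 40.1, 17.1 and 15.8 CPM with glutamine and at 46.1, 46.3 and 47.0 without, a log2 fold change of 0.93 (edgeR adjusted p 0.128, SE 0.34), with replicate 1 with glutamine nearer the other group. Of 17 genes known to induce HOX genes or to set the retinoic acid signal that does, edgeR called none and DESeq2 called 3 (17.6%, against 14% of all genes): GDF11 and RARG fell and CYP26B1 rose. The 2 with separate groups and a log2 fold change past 0.5 were CYP26B1, which breaks down retinoic acid, at 1.09 (edgeR adjusted p 0.103, SE 0.35) and WNT3A, a ligand of the tail bud, at 0.55 (edgeR adjusted p 0.212, SE 0.27). WNT3A parted narrowly, at 2.99, 3.23 and 3.21 CPM with glutamine and 6.61, 3.92 and 3.23 without. Over the 17 the log2 fold changes ran from -2.06 for CDX1 to 1.11 for RARB, both with groups that overlapped. CDX1 was at 1.16, 9.85 and 9.62 CPM with glutamine and 1.84, 1.66 and 1.43 without. RARB was at 48.7, 20.6 and 21.0 CPM with glutamine and 48.2, 63.2 and 83.9 without. Of 24 trithorax and polycomb genes, chromatin regulators that keep HOX genes on or off, edgeR called none. DESeq2 called KMT2A and PHC3, both lower (8.33%, against 14% of all genes), and the log2 fold changes ran from -0.49 to 0.52. Without replicate 1 with glutamine, edgeR called 3 TALE genes higher and 0 lower, 3 inducers higher and 7 lower, and 3 chromatin regulators higher and 6 lower. In all these are 33.3%, 58.8% and 37.5% of the lists, against 41.3% of all genes (22.3% higher and 19% lower). EVX1 and EVX2, homeobox genes at the ends of the HOXA and HOXD clusters, had at most 12 counts in any library.

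HOX levels differ between cell types, and in RNA from whole cultures fewer cells of a type and less RNA per cell cannot be told apart. Several marker lists moved with the groups or with replicate 1 with glutamine. The intermediate mesoderm and nephron list (11 genes) summed to 1657, 1041 and 971 CPM with glutamine and to 1532 to 2062 without. The paraxial mesoderm and somite list (10 genes, of which 8 were tested) summed to 79.5, 220 and 224 CPM with glutamine and 85.1 to 122 without, with PAX1 below 0.1 CPM in every library. In both lists replicate 1 with glutamine was at the level of the other group, as it was for most HOX genes.

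The lateral plate list (7 genes, 3 tested) summed to 1.99 to 8.52 CPM with glutamine and 12.6 to 16.1 without, with HAND1 and TBX20 below 0.1 CPM. Most of that sum was GATA6, at 7.71, 2.04 and 1.72 CPM with glutamine and 13.2, 12.1 and 15.4 without. FOXA2, a marker of endoderm, was below 0.1 CPM in every library. The endothelial and blood list (5 genes, all tested) summed to 26.8 to 88.9 CPM with glutamine and 15.1 to 20.0 without. Most of this sum was KDR, at 24.3, 82.3 and 69.8 CPM with glutamine and 13.5, 12.7 and 17.5 without. RUNX1 alone of these 5 genes had a fold change above 0 (log2 fold change 1.03). The neural list (8 genes, 7 tested) summed to 17.7 to 34.1 CPM and 17.3 to 22.2, and the pluripotency list (5 genes, 3 tested) to 348 to 443 CPM and 346 to 415, with NANOG below 0.1 CPM in every library. The pluripotency sum joins genes that went opposite ways, each with separate groups. The log2 fold changes were 0.80 for DPPA4, 0.38 for ZFP42 and -0.95 for LIN28A. The part of any of these cell types in the HOX values was not tested.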

How the data were processed

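The authors deposited raw counts per Ensembl gene for 6 libraries, and a table of normalized counts, treated as a signal, in which each deposited count is divided by 1 constant per library (0.977 to 1.08) equal to DESeq2's size factor. Per the labels, libraries were stranded mRNA, read as single 50-nt ends. The submitters' processing notes name cutadapt, Trim Galore, FastQC, STAR 2.5.2b, DESeq2 and GRCh38. The counting program, annotation and strand setting are not given in the sources used here. Column headings name days 0 and 9, and each sample's description ties its heading to its group. Symbols, positions and merged exon lengths came from GENCODE 29 (56531 IDs matched, 3576 not).

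The test was the quasi-likelihood F test of edgeR 4.0.16 on R 4.3.3, with legacy = FALSE, filterByExpr, TMM, Benjamini-Hochberg over all 22613 genes kept, threshold 0.05. SE is the absolute log2 fold change over the square root of F, and 95% intervals use the test's degrees of freedom. CPM uses TMM-scaled library sizes. DESeq2 1.42.0 was an alternative. Scripts were tested on simulated data. All HOX genes of the list could be named. Genes of other lists were named if called, or if groups were separate with an absolute log2 fold change of at least 0.5. Some marker genes, the EVX genes and the ends of the inducers' range were named as well. The members and lists were chosen with earlier results of these data known, and the gene pairs and motifs after these values were seen. A further gene that fits the rule is not reported here.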

Additional observations from a re-analysis of the deposited data

How the results depend on the processing

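The count of called genes was 1 with edgeR on all libraries. It was 0 with the replicate block, with legacy = TRUE, under upper quartile scaling and with library size only, 2 with no filter and 3041 with DESeq2, and ran from 0 to 9573 with 1 library left out. The count of HOX genes called, 0 with all libraries, was 7 with DESeq2, and 0 to 17 with 1 library left out, the 17 coming without replicate 1 with glutamine. The other fits that left out 1 library called 0. Why DESeq2 and edgeR differ was not tested. HOX genes without overlap between groups, 6 with all libraries, numbered 6 to 19 with 1 library left out. The 19 came without replicate 1 with glutamine, where 63.3% of all genes did not overlap. Leaving out replicate 1 of the other group gave 14. For that fit the share over all genes was not computed, so its 14 cannot be read as particular to HOX genes. The median over the 27 ran from -0.23 to 0.005 with 1 library left out. Among scalings, the all-gene median shifted most under upper quartile (by -0.044).

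Of 378 values of single HOX genes under 14 alternatives, 333 kept sign and call, 24 became called and 21 changed sign. HOXA2 was at 0.011 with the replicate block, 0.0023 with DESeq2 and 0.0052 with no filter. HOXC9 was at -0.027 and HOXD4 at -0.0062 under upper quartile scaling. With 1 library left out, HOXA2 ran from -0.131 to 0.0662, HOXA3 from -0.104 to 0.0638, HOXC5 from -0.178 to 0.0211, HOXC9 from -0.13 to 0.12, HOXD1 from -0.0869 to 0.517, HOXD3 from -0.12 to 0.005 and HOXD4 from -0.23 to 0.18.

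After subtracting group means, same-numbered samples had correlations over all genes of -0.0205, 8.77e-05 and 0.0281. Only 1 of 6 samples correlated best with its own number. With 3 libraries a group, 1 of them apart from its fellows, these values cannot settle whether same-numbered samples were paired. Depth limits groups 12 and 13, whose counts were at most 16 in a library.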
